A study of Macaca fascicularis with 56 samples.

Results

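Elafin, encoded by PI3, is a small secreted inhibitor of neutrophil elastase and proteinase 3. It was followed here in macaque blood together with 7 other inhibitors made by leukocytes, namely SLPI, SERPINB1, SERPINA1, CSTA, CST3, CST7 and TIMP1. PI3 was chosen from earlier results on these same arrays, as the gene with the largest increase at 2 h, and the other 7 genes were chosen by their known role. A gene was read by the probe set that carried its symbol alone in the annotation of the human array, and where several did, by the probe set whose mean over the 56 arrays was highest. This gave 8 genes of the 19775 with such a probe set. Of these, 7 passed the filter on low values, which asked for a level above the array's median on at least 4 of the 56 arrays, and SLPI did not.

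The arrays were hybridised with whole blood RNA of 14 cynomolgus macaques (Macaca fascicularis), each sampled at 0, 2, 4 and 8 h. The LR12 arm held the 6 animals Y31309 to Y31314. The LR12 peptide copies a stretch of TREM-like transcript 1 and captures what would otherwise bind TREM-1, an amplifying receptor of neutrophils and monocytes. The peptide control arm held the 4 animals Y31305 to Y31308, and the series title names the scrambled form of LR12. The vehicle arm held the 4 animals Y31301 to Y31304. The title states an endotoxin challenge before the peptides. Whether the vehicle animals received endotoxin, the doses, and the place of 0 h relative to the challenge are not given in the sources used here.

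Neutrophils store elastase, proteinase 3 and cathepsin G in granules, and inhibitors keep these enzymes in check outside the granule. Elafin and SLPI share the whey acidic protein (WAP) fold and lie near each other in the genome; in the macaque gene table they are neighbours with 2 protein-coding genes between them. SERPINB1 is a serpin that stays inside neutrophils and monocytes and traps elastase and cathepsin G, while SERPINA1, alpha-1 antitrypsin, is secreted and traps elastase. Cystatins A (CSTA), C (CST3) and F (CST7) block cysteine cathepsins, and TIMP1 blocks matrix metalloproteinases. PI3 is best known from epithelia, where inflammatory cytokines induce it.

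Values are log2 of the scaled array intensity, and a difference of 1 is a doubling. The probes were designed on human sequence, so a level is compared between groups for one gene and never between genes. Across all genes tested, the median change in LR12 animals was -0.18 at 2 h, -0.29 at 4 h and -0.27 at 8 h relative to 0 h. Y31305 and Y31303 stood apart from their arms. Correlated over all genes with the mean 2 h change of the LR12 animals, the change of Y31305 gave r = -0.001, against 0.422 to 0.548 in the other peptide control animals. That of Y31303 gave r = 0.369, against -0.014 to 0.236 in the other vehicle animals. Values are therefore given with and without both animals, a step chosen after seeing the data. The arrays also fell into 32 with a low mean (6.61 to 8.35) and 24 with a high mean (9.002 to 10.60) over 24 control probe sets for added bacterial transcripts. Each arm held arrays of both sets, although at 2 h the vehicle arm had only low ones and at 4 h the peptide control only high ones. The median array intensity lay between 12.9 and 23.5 before the log. The number of animals limits the precision, and p-values measure the spread between these animals. In whole blood, fewer cells of a type and less RNA per cell cannot be told apart.

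PI3 took 1 of 2 levels on every array. It lay at or below 7.45 on 26 arrays and at or above 11.43 on 30, with no array between. In LR12 animals the lowest, median and highest levels were 4.68, 5.70 and 7.04 at 0 h. They were 12.45, 13.80 and 14.32 at 2 h, then 12.41, 13.67 and 13.78 at 4 h, and 11.43, 13.52 and 13.78 at 8 h. All 6 animals were thus low at 0 h and high at every later hour, with no overlap.

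In the peptide control animals Y31305, Y31306, Y31307 and Y31308, PI3 was 6.26, 6.66, 4.54 and 5.27 at 0 h and 7.20, 13.95, 13.00 and 13.64 at 2 h. At 4 h it was 7.45, 13.76, 13.26 and 13.26, and at 8 h 7.36, 13.22, 11.86 and 12.79. Y31305 stayed at the low level throughout, and the other 3 animals reached the level of the LR12 arm. In the vehicle animals Y31301, Y31302, Y31303 and Y31304, PI3 was 5.40, 4.81, 5.93 and 6.45 at 0 h and 6.17, 5.94, 13.91 and 6.47 at 2 h. At 4 h it was 6.30, 5.47, 13.84 and 6.02, and at 8 h 5.73, 6.17, 13.72 and 6.80. Y31303 was as high as LR12 animals from 2 h on, and the other 3 vehicle animals stayed within the range of all animals at 0 h.

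**Figure D1:**
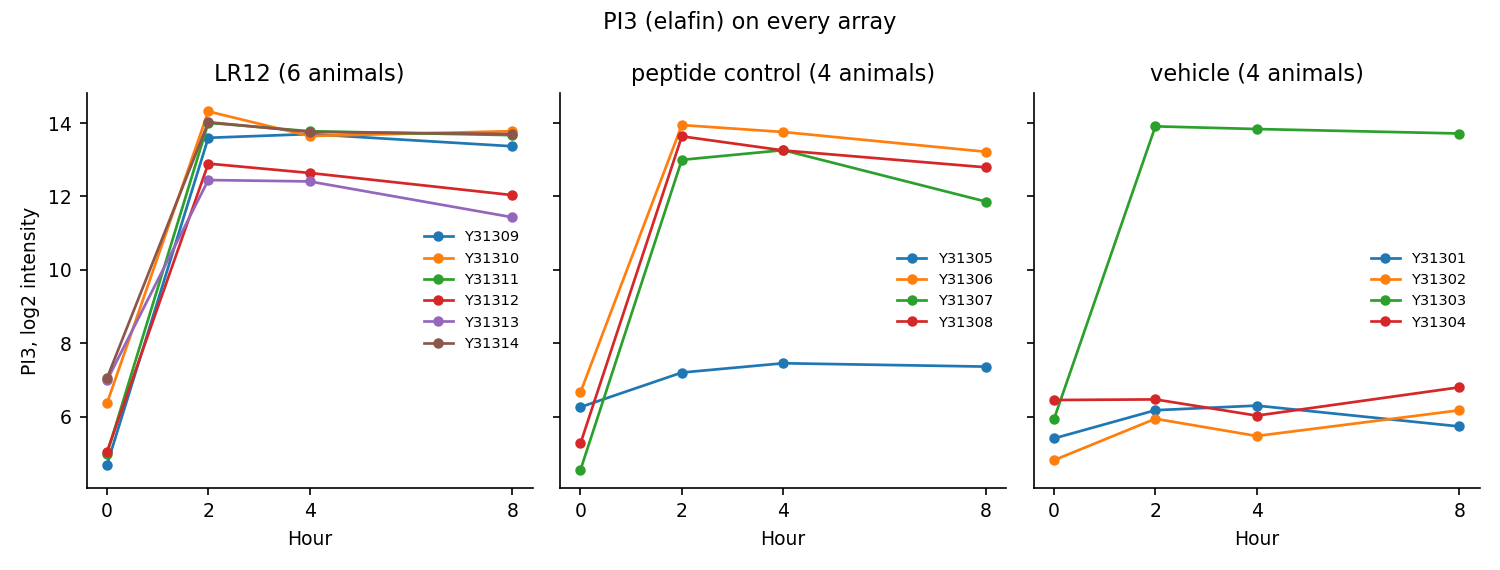
PI3 level (log2 array intensity, vertical axis) by hour (horizontal axis) in the LR12, peptide control and vehicle arms, with 1 line per animal. All 6 LR12 animals are high from 2 h on; Y31305 alone is low in the peptide control arm at 2, 4 and 8 h, and Y31303 alone is high in the vehicle arm.

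As a description, since the 2 h value chose the gene and 0 h enters every such difference, the mean PI3 level in LR12 animals was 7.70, 7.48 and 7.15 above 0 h at 2, 4 and 8 h. The first of these is 209-fold. In the peptide control the mean differences were 6.27, 6.25 and 5.63, and without Y31305 they were 8.04, 7.94 and 7.13. In vehicle animals they were 2.47, 2.26 and 2.46, and without Y31303 they were 0.64, 0.38 and 0.68. The means of both control arms thus lie where no single animal was. Single LR12 animals gained between 5.47 and 9.03 at 2 h. PI3 ranked first among all genes at 2 h in the LR12 and peptide control arms and 12th in vehicle animals. Just below it in LR12 animals stood CRISP3 at 6.501 and OLFM4 at 6.49, which encode neutrophil granule proteins, and CRISP3 followed it in the peptide control at 4.79.

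The level of PI3 at 8 h against 4 h used neither the 0 h nor the 2 h arrays and could be tested. It differed by -0.32 ± 1.304 (SE) in LR12 animals, with an adjusted p of 0.941 and a lower value in 5 of 6 animals. In the peptide control the difference was -0.62 ± 1.60 with an adjusted p of 0.933, lower in 4 of 4 animals. In vehicle animals it was 0.20 ± 1.60 with an adjusted p of 1. Single animals changed by -0.98 to 0.13 in LR12 animals and by -1.40 to -0.09 in the peptide control. The SE come from a model without pairing and hold the spread between animals, Y31303 and Y31305 included. They do not measure the spread of the step within an animal. No change of PI3 between 4 and 8 h was thus detected in any arm, and a step of this size could be missed.

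A second probe set that carries the symbol PI3 alone gave the same split of animals. In LR12 animals it ran from 2.81 to 5.29 at 0 h, 10.19 to 12.21 at 2 h, 9.98 to 12.05 at 4 h and 8.88 to 11.75 at 8 h. In the peptide control animals Y31305 to Y31308 it was 5.35, 11.92, 10.25 and 11.37 at 2 h. In the vehicle animals Y31301 to Y31304 it was 4.93, 3.74, 11.91 and 5.58 at 2 h. Y31305 was again low and Y31303 again high, also at 4 h (5.93 and 11.84) and at 8 h (6.00 and 11.43).

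Among the 16019 other genes tested, the 8 whose levels ran closest to PI3 over the 56 arrays were CD55, CHI3L2, HMOX1, LGALS12, AGFG1, OLFM4, MARCKS and PSTPIP2. Their Pearson correlations with PI3 ran from 0.968 for CD55 and CHI3L2 to 0.927 for MARCKS and PSTPIP2. These are descriptions over arrays that share animals, hours and the array sets. CD55, a cell surface brake on complement, ran from 12.65 to 13.23 in LR12 animals at 2 h and from 10.56 to 11.24 at 0 h. At 2 h it was 11.17 in Y31305 and 12.72 to 12.98 in the other peptide control animals, and 12.86 in Y31303 and 11.12 to 11.31 in the other vehicle animals. CD55 was chosen by its likeness to PI3 on these arrays, so its like placing of Y31305 and Y31303 follows from that choice.

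CHI3L2, a chitinase-like protein, ran from 11.36 to 12.40 in LR12 animals at 2 h and from 5.43 to 6.76 at 0 h. At 2 h it was 6.14 in Y31305, 11.20 in Y31303 and 5.42 to 5.92 in the other vehicle animals. HMOX1, the inducible heme oxygenase, ran from 10.84 to 11.86 in LR12 animals at 2 h and from 7.83 to 8.87 at 0 h, and was 7.64 in Y31305 and 11.29 in Y31303 at 2 h. These genes were chosen the same way. After the mean of each of the 12 groups of arm and hour was taken out, so that only differences among animals of one group remained, the closest were CD55 (0.932), CHI3L2 (0.918), HMOX1 (0.903), CISH (0.884), MARCO (0.879), INHBA (0.871), LGALS12 (0.869) and OLFM4 (0.868). Of the inhibitors, SERPINB1 stood closest to PI3 over all arrays (r = 0.86, rank 83), followed by CSTA (0.754), SERPINA1 (0.694) and TIMP1 (0.622). CST7 was at 0.002 and CST3 at -0.665. Within groups the values were 0.728 for CSTA, 0.677 for TIMP1, 0.639 for SERPINB1 and 0.391 for SERPINA1, against -0.231 for CST7 and -0.547 for CST3.

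SLPI, the closest relative of elafin in the set, was above the array median on 1 of 56 arrays. Its level ran from -0.70 to 4.06 over all arrays, so this probe set gave no usable measure and no change of SLPI is reported.

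SERPINB1 was higher in LR12 animals at every hour after 0 h. The lowest, median and highest levels were 9.98, 10.57 and 11.32 at 0 h, 11.999, 12.68 and 13.04 at 2 h, then 12.30, 12.73 and 13.01 at 4 h, and 11.76, 12.41 and 12.81 at 8 h. Every later level lay above every 0 h level. It rose by 2.02 ± 0.34 (SE) at 2 h, by 2.14 at 4 h and by 1.79 at 8 h, each in 6 of 6 animals, with adjusted p of 5.93e-06, 2.04e-06 and 7.89e-05.

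SERPINB1 of the peptide control animals Y31305 to Y31308 was 11.45, 10.55, 11.24 and 11.52 at 0 h and 11.94, 12.30, 12.27 and 12.64 at 2 h. It was 11.57, 12.70, 12.51 and 12.55 at 4 h and 11.54, 12.01, 12.34 and 11.63 at 8 h. All 4 levels at 2 h and at 4 h lay above those at 0 h, with Y31305 the least changed at 4 h. The differences of 1.10 at 2 h and 1.14 at 4 h missed the threshold (adjusted p of 0.143 and 0.0836), and both passed it with the animal as a block (0.0212 and 0.0117). At 8 h the difference was 0.69 with an adjusted p of 0.47.

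In the vehicle animals Y31301 to Y31304, SERPINB1 was 10.57, 9.62, 11.23 and 11.74 at 0 h and 10.46, 10.83, 12.60 and 11.92 at 2 h. It was 10.53, 11.22, 12.80 and 11.50 at 4 h and 10.56, 10.45, 12.51 and 11.32 at 8 h. The hours overlapped, and Y31303 held the highest level from 2 h on.

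SERPINA1 moved little. In LR12 animals its lowest, median and highest levels were 12.29, 13.18 and 13.43 at 0 h, 13.41, 13.69 and 13.999 at 2 h, then 13.42, 13.55 and 13.73 at 4 h, and 13.39, 13.60 and 13.77 at 8 h. It rose by 0.69 ± 0.18 (SE) at 2 h, 0.55 at 4 h and 0.58 at 8 h, each in 6 of 6 animals, with adjusted p of 0.00194, 0.011 and 0.0102, and the ranges touched those of 0 h. The 4 and 8 h calls were lost without Y31309. Peptide control animals ran from 13.45 to 13.75 at 2 h and from 12.76 to 13.36 at 0 h, a difference of 0.45 with an adjusted p of 0.314. In vehicle animals it ran from 12.81 to 13.70 at 2 h and from 11.74 to 13.40 at 0 h, a difference of 0.47 with an adjusted p of 0.753. Neither control arm passed the test at 4 h (0.30 in the peptide control and 0.46 in vehicle) or at 8 h (0.18 and 0.46). Further probe sets, above the array median on all 56 arrays, rose more than the chosen one in LR12 animals. The brighter averaged 9.14, 10.52, 10.53 and 11.23 at 0, 2, 4 and 8 h, and the other 7.70, 9.001, 8.72 and 8.55. In the peptide control the brighter averaged 9.355, 9.78, 9.87 and 10.43, and in vehicle animals 8.69, 9.62, 9.67 and 9.41. The other averaged 7.45, 8.67, 7.99 and 8.21 in the peptide control and 7.33, 8.20, 7.91 and 7.995 in vehicle animals. It was thus also higher at 2 h than at 0 h in both control arms.

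CSTA, an inhibitor of cathepsins in the cytosol, was higher in LR12 animals after 0 h. The lowest, median and highest levels were 9.17, 10.19 and 10.75 at 0 h, 10.60, 12.15 and 12.81 at 2 h, then 10.87, 11.87 and 12.35 at 4 h, and 10.60, 11.94 and 12.57 at 8 h. Only at 4 h did every animal lie above every 0 h level. It rose by 1.94 ± 0.60 (SE) at 2 h, 1.77 at 4 h and 1.72 at 8 h, each in 6 of 6 animals, with adjusted p of 0.0103, 0.0169 and 0.0268. With the array set as a term in the model, the 8 h value was 1.49 and no longer called. Leaving out Y31310 ended the call at all 3 hours, leaving out Y31309 those at 4 and 8 h, and leaving out Y31311, Y31312 or Y31314 that at 8 h.

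The peptide control animals began high in CSTA. Y31305 to Y31308 held 11.40, 11.12, 11.24 and 11.76 at 0 h, 11.49, 12.35, 11.90 and 12.36 at 2 h, then 9.80, 11.82, 11.997 and 12.03 at 4 h, and 11.60, 11.70, 11.77 and 12.10 at 8 h. The 9.80 of Y31305 at 4 h was the lowest level of the arm. The differences from 0 h were 0.65, 0.03 and 0.41 at 2, 4 and 8 h, with adjusted p of 0.774, 0.986 and 0.863. At 0 h all 6 LR12 animals lay below all 4 peptide control animals, a difference of -1.39 ± 0.67 (SE) with an adjusted p of 1.

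In the vehicle animals Y31301 to Y31304, CSTA was 9.10, 8.17, 11.54 and 9.76 at 0 h and 8.55, 8.48, 11.35 and 10.81 at 2 h. It was 8.52, 7.94, 12.03 and 8.59 at 4 h and 8.33, 7.74, 12.40 and 9.47 at 8 h. Y31303 was the highest at all 4 hours, 0 h included.

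CST3, the secreted cystatin C, went the other way. In LR12 animals its lowest, median and highest levels were 10.82, 11.79 and 12.20 at 0 h, 9.61, 10.19 and 10.72 at 2 h, then 9.76, 10.93 and 11.003 at 4 h, and 10.37, 11.50 and 11.87 at 8 h. Every 2 h level lay below every 0 h level, while the ranges at 4 and 8 h overlapped that of 0 h. CST3 fell by 1.47 ± 0.26 (SE) at 2 h and by 0.98 at 4 h, with adjusted p of 1.32e-05 and 0.00207. At 8 h the difference was -0.31 with an adjusted p of 0.389. From 4 to 8 h CST3 was higher in 6 of 6 LR12 animals, by 0.66 ± 0.26, with an adjusted p of 0.133, and 0.0347 with a block for the animal. Against the all-gene shift, with every array centred on its median, the 4 h value was -0.71 and missed the threshold.

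CST3 of the peptide control animals Y31305 to Y31308 was 11.40, 11.72, 11.98 and 11.71 at 0 h, 11.60, 11.35, 10.63 and 10.80 at 2 h, then 11.13, 10.70, 10.35 and 10.48 at 4 h, and 11.97, 11.30, 11.24 and 11.02 at 8 h. All 4 animals were below every 0 h level at 4 h, and Y31305 was the highest at 2, 4 and 8 h. CST3 fell by 1.04 ± 0.32 (SE) at 4 h with an adjusted p of 0.0441, and the call was lost under 13 of 28 alternatives that gave a value, among them leaving out any one of Y31301, Y31306, Y31307, Y31308, Y31312 and Y31313. The differences at 2 h (-0.61) and 8 h (-0.32) had adjusted p of 0.366 and 0.714.

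In the vehicle animals Y31301 to Y31304, CST3 was 11.33, 11.15, 11.58 and 11.61 at 0 h and 11.48, 11.07, 10.03 and 12.16 at 2 h. It was 11.55, 10.94, 10.57 and 11.65 at 4 h and 11.83, 11.42, 11.44 and 11.92 at 8 h. Y31303 was the lowest at 2 and 4 h and the other 3 moved less. CST3 has 2 further probe sets, which were above the array median on few arrays and gave the opposite sign in LR12 animals at 2 and 4 h; their values stand with the alternatives in the closing section.

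CST7, cystatin F, an inhibitor of cathepsins inside granules of lymphocytes and myeloid cells, was not called in any comparison of the main model. In LR12 animals it ran from 8.19 to 9.35 at 0 h, 8.00 to 9.41 at 2 h, 7.65 to 9.34 at 4 h and 8.14 to 10.24 at 8 h, and the hours overlapped. The differences from 0 h were 0.12, -0.28 and 0.53, with adjusted p of 0.825, 0.536 and 0.224. From 4 to 8 h it was higher in 5 of 6 LR12 animals (0.81 ± 0.32, SE, adjusted p 0.14), and called in the fit with a block for the animal (0.0468). With the array set in the model, CST7 was called higher in LR12 animals at 8 h against 0 h (0.77, adjusted p 0.026) and against 4 h (0.93, 0.0179). On the low set alone the difference from 0 h at 8 h was 1.17 (0.0102).

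The peptide control animals Y31305 to Y31308 had CST7 levels of 8.42, 7.46, 7.52 and 7.64 at 4 h and 8.84, 9.06, 8.82 and 9.18 at 8 h. All 4 were above every 4 h level at 8 h, a difference of 1.21 ± 0.39 (SE) with an adjusted p of 0.245. Vehicle animals ran from 7.86 to 8.71 at 8 h and from 7.56 to 8.81 at 4 h.

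TIMP1 rose late. In LR12 animals its lowest, median and highest levels were 10.32, 11.21 and 12.03 at 0 h, 10.73, 11.29 and 11.52 at 2 h, then 11.74, 11.90 and 12.21 at 4 h, and 12.68, 12.91 and 12.99 at 8 h. The 8 h levels lay above all those of 0 and 4 h, and their spread was the smallest of the 4 hours. The difference from 0 h was -0.10 at 2 h (adjusted p 0.836) and 0.64 ± 0.28 (SE) at 4 h (0.0622, or 0.0164 with the animal as a block, and also called with arrays centred). At 8 h TIMP1 rose by 1.63 ± 0.28, with an adjusted p of 1.93e-05 and in 6 of 6 animals. The 8 h level against the 4 h level was higher by 0.99 ± 0.28 with an adjusted p of 0.0212, a call that was lost when any one of Y31309, Y31311, Y31312, Y31313 and Y31314 was left out.

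TIMP1 of the peptide control animals Y31305 to Y31308 was 11.24, 11.24, 11.17 and 11.61 at 0 h, 11.05, 12.54, 11.51 and 12.21 at 2 h, then 11.09, 12.09, 12.06 and 12.32 at 4 h, and 11.54, 12.80, 12.52 and 13.15 at 8 h. Y31305 was the lowest at 2, 4 and 8 h and the other 3 were close to LR12 levels at 8 h. The 8 h difference was 1.19 ± 0.34 (SE), higher in 4 of 4 animals, with an adjusted p of 0.0711, and 0.00816 with a block for the animal. Without Y31305 and Y31303 it was 1.48 and called.

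In the vehicle animals Y31301 to Y31304, TIMP1 was 11.11, 10.89, 11.005 and 11.02 at 0 h and 10.76, 10.30, 11.14 and 11.19 at 2 h. It was 10.64, 10.13, 11.74 and 11.01 at 4 h and 10.99, 10.83, 12.97 and 11.22 at 8 h. Y31303 reached the LR12 level at 8 h and the other 3 stayed near 0 h.

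**Figure D2:**
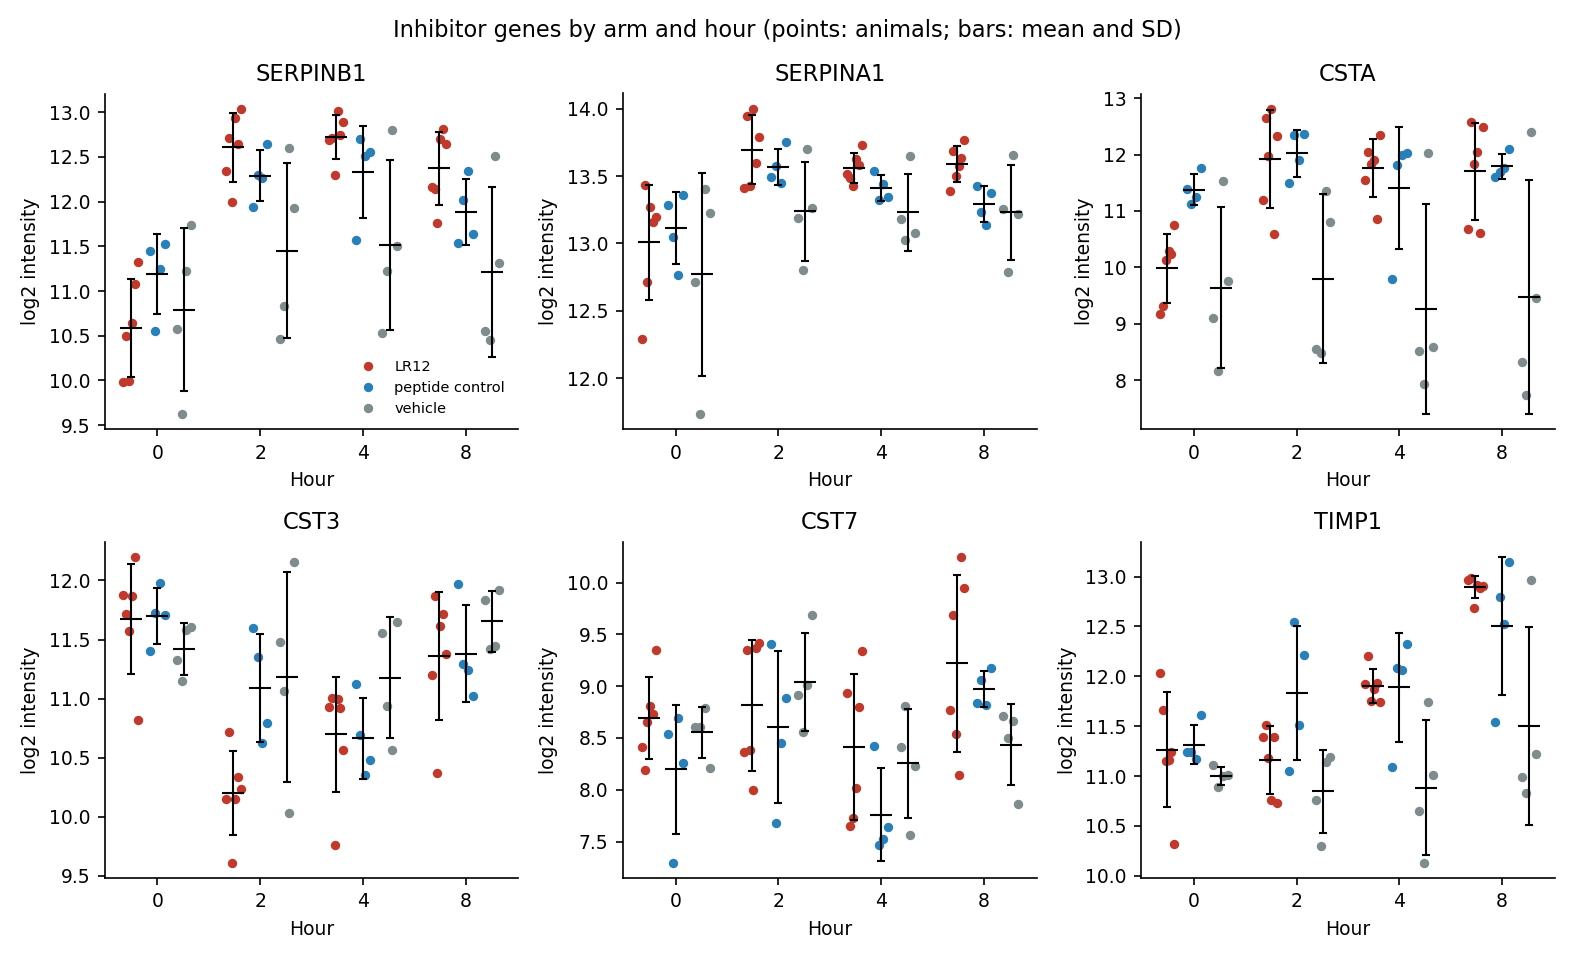
Levels (log2 array intensity, vertical axes) of the 6 tested inhibitors other than PI3, by hour (horizontal axes), with the LR12 arm left, then peptide control, then vehicle; points are animals, bars mean and SD. SERPINB1 and CSTA of LR12 animals lie higher after 0 h, CST3 dips at 2 h (median 10.19), and TIMP1 peaks at 8 h (median 12.91).

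Counted over the 6 tested inhibitors other than PI3, LR12 animals had 3 genes higher and 1 lower at 2 h against 0 h (SERPINB1, SERPINA1 and CSTA against CST3), where 32 percent of all genes were called. At 4 h the same 4 genes were called the same way, against 36.8 percent, and at 8 h SERPINB1, SERPINA1, CSTA and TIMP1 were higher and 0 lower, against 29.1 percent. Without Y31309 the 8 h calls of SERPINA1 and CSTA were lost, and the count was 2. Their median change was 0.40, 0.60 and 1.11 at 2, 4 and 8 h, against -0.18, -0.29 and -0.27 over all genes. From 4 to 8 h in LR12 animals, TIMP1 was the 1 gene called, against 5.67 percent of all genes. Between 29.1 and 36.8 percent of all genes passed in this arm, so a call there is common.

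In the peptide control 0 of the 6 genes were called at 2 h (3.3 percent of all genes, and 2356 genes at an unadjusted p under 0.05), CST3 alone at 4 h (4.84 percent) and 0 at 8 h (0.73 percent, 2200 genes unadjusted). In vehicle animals limma called 0 of them at each hour, against 0, 0.0125 and 0.0375 percent of all genes, with 1008, 1502 and 998 genes at an unadjusted p under 0.05. From 4 to 8 h, with PI3 counted, 0 of 7 were called in the peptide control (0.112 percent, 1509 genes unadjusted) and 0 of 7 in vehicle animals (0 percent, 475 genes unadjusted). All changes of an arm share its 0 h arrays.

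Without Y31305 and Y31303, the peptide control had 1 gene called at 2 h (SERPINB1), 3 at 4 h (SERPINB1 and TIMP1 higher, CST3 lower) and 1 at 8 h (TIMP1), while 8.36, 17.6 and 7.27 percent of all genes were called. In a fit with the animal as a block this arm had SERPINB1 at 2 h, SERPINB1 and CST3 at 4 h and TIMP1 at 8 h. The share of all genes called in that fit is not given, so these blocked calls are not read further. Vehicle animals still had 0 called at each hour without both, against 0, 0 and 0.0437 percent of all genes. The counts of LR12 animals without both were 3 higher and 1 lower, 4 higher and 1 lower, and 4 higher and 0 lower, against 34.7, 39.5 and 32.7 percent of all genes.

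**Figure D3:**
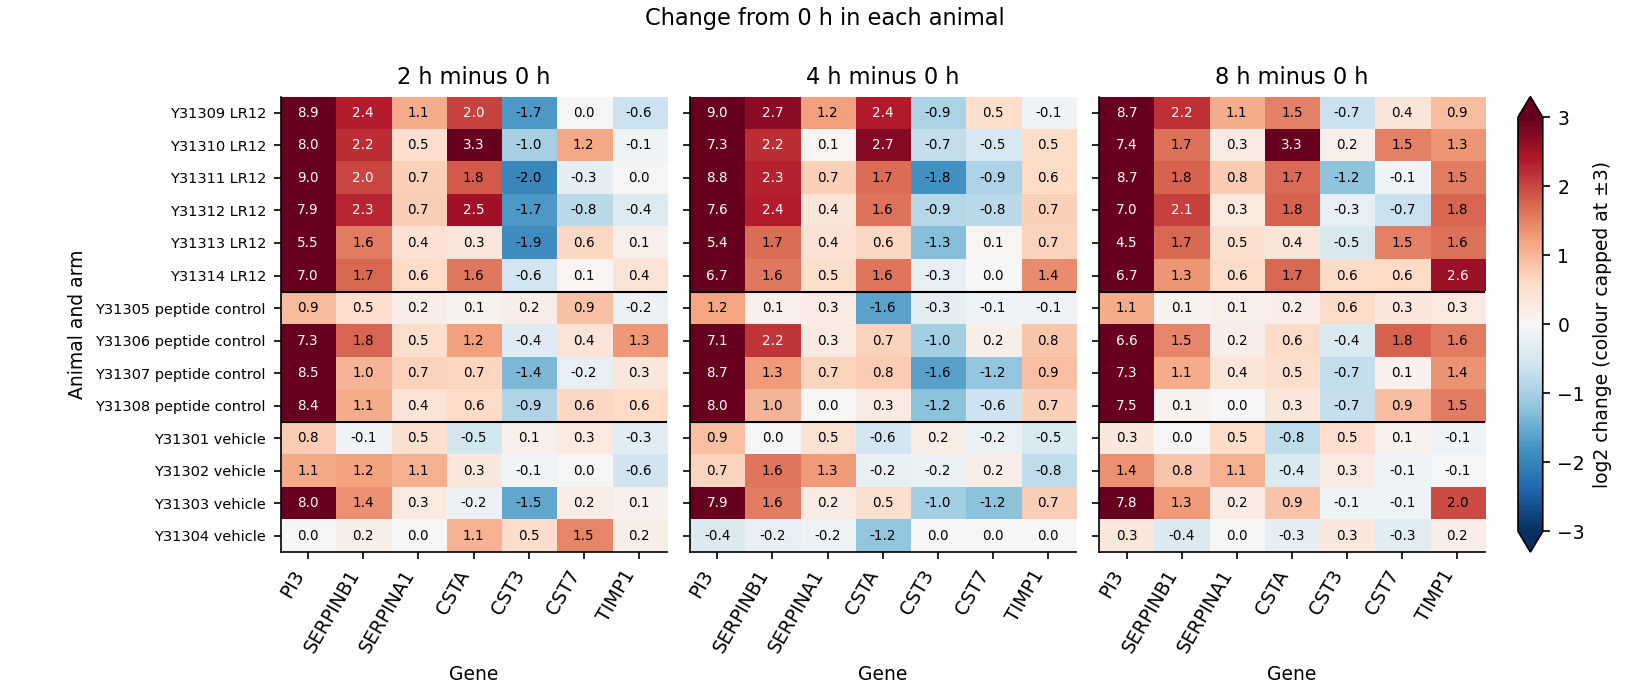
Change of 7 inhibitors from 0 h (log2, colour, limited to 3 in either direction) at 2, 4 and 8 h in each of the 14 animals, LR12 animals on top, then peptide control, then vehicle. PI3 is pale in Y31305, unlike the rest of the peptide control, and coloured in Y31303, unlike the rest of the vehicle arm. CSTA of Y31305 changed the lowest of its arm at each hour, with -1.60 at 4 h. CSTA of Y31303 lay above the other vehicle animals at 4 and 8 h (0.49 and 0.86) and among them at 2 h (-0.19).

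The arms were then compared at each hour, which asks whether LR12 animals differed from animals given the control peptide or the vehicle. Against the peptide control, limma called 0 of the 6 inhibitors tested at 0 h, PI3 left out, where 0 percent of all genes were called and 762 passed an unadjusted p of 0.05. It also called 0 at 2 h (of 6, PI3 left out; 2.95 percent, 2866 genes unadjusted), 0 at 4 h (1.35 percent, 2562 genes) and 0 at 8 h (0.0187 percent, 1673 genes). PI3 in LR12 animals was 1.39 above the peptide control at 4 h, with a 95% interval from -1.54 to 4.33 and an adjusted p of 0.715. At 8 h it was 1.69 above, with an interval from -1.25 to 4.63 and an adjusted p of 0.711. Without Y31305 and Y31303 the difference was -0.10 at 4 h, with an interval from -1.16 to 0.95, and 0.38 at 8 h, with an interval from -0.68 to 1.43. Y31305 was left out after its low PI3 was seen, so the smaller gap follows from that choice.

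SERPINB1 in LR12 animals differed from the peptide control by 0.32, 0.39 and 0.49 at 2, 4 and 8 h, with adjusted p of 0.721, 0.679 and 0.666. CST3 was lower in LR12 animals than in the peptide control at 2 h, -0.89 ± 0.29 (SE), with an interval from -1.47 to -0.31 and an adjusted p of 0.0732. It passed the threshold with the animal as a block (0.0436), with the array set in the model, or without Y31303, and not without both animals (-0.72). TIMP1 at 2 h was -0.67 with an adjusted p of 0.237, and -0.92 and called without both animals, when it was the 1 inhibitor called against 1.47 percent of all genes. The change from 0 h in LR12 animals minus that in the peptide control was called for 0 inhibitors at 2, 4 and 8 h, against 0, 0 and 0 percent of all genes and 1900, 1142 and 885 genes at an unadjusted p under 0.05.

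Against vehicle, LR12 animals had 0 of 6 inhibitors called at 0 h, PI3 left out (0.0187 percent of all genes, 709 genes unadjusted). At 2 h SERPINB1 and CSTA were higher and CST3 lower, against 15.9 percent of all genes, with PI3 left out. At 4 h PI3, SERPINB1, CSTA and TIMP1 were higher, against 11.9 percent, and at 8 h TIMP1 alone, against 2.72 percent. These contrasts share the arrays of the LR12 arm with those against the peptide control.

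PI3 in LR12 animals was above vehicle by 5.42 ± 1.46 (SE) at 4 h, with an interval from 2.48 to 8.35 and an adjusted p of 0.0117. At 8 h it was 4.90 above, with an interval from 1.96 to 7.83 and an adjusted p of 0.0541. The same animals chose PI3 by its 2 h increase, and LR12 animals stayed high at 4 and 8 h. Neither p is thus independent of that choice. The arms overlapped at both hours because Y31303 lay above the LR12 range at 4 h and inside it at 8 h. Without Y31303 and Y31305 the differences were 7.39 and 6.77, both called, and the arms did not overlap. PI3, SERPINB1, CSTA and TIMP1 were then higher at both 4 and 8 h (24.7 and 18.9 percent of all genes), and at 2 h SERPINB1, SERPINA1 and CSTA were higher and CST3 lower (23.3 percent). Y31303 was left out after its high PI3 was seen, so the lack of overlap and the larger PI3 differences follow from that choice. The other calls without both animals lean on it too. Leaving out any one of Y31301, Y31302 and Y31304, which leaves Y31303 in an arm of 3, ended the call of all 4 genes at 4 h; leaving out Y31312 ended that of SERPINB1 and leaving out Y31310 that of TIMP1.

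SERPINB1 was higher than vehicle by 1.16 ± 0.38 (SE) at 2 h (adjusted p 0.0277), 1.21 at 4 h (0.0264) and 1.16 at 8 h (0.0711). CSTA was higher by 2.13 ± 0.67 (0.0247), 2.49 (0.012) and 2.22 (0.0575) at the same hours. TIMP1 was higher by 1.02 ± 0.31 at 4 h (0.0227) and 1.39 at 8 h (0.0103), and CST3 lower, by -0.98 ± 0.29 at 2 h (0.0142). The 2 h call of SERPINB1 was lost under 11 of 29 alternatives, 5 of them the loss of 1 animal and others quantile normalization, only the groups compared, and other probe sets. CST3 lost its call without Y31301 or Y31304. At 2 h the count of 3 fell to 0 without Y31301 and to 1 without Y31302, Y31310, Y31312 or Y31314. At 8 h the count of 1 went to 0 without Y31301, Y31302 or Y31304, to 2 without Y31305 or Y31309 and to 4 without Y31303. With the animal as a block it was 4 at 8 h, namely PI3 (0.023), SERPINB1 (0.0299), CSTA (0.0184) and TIMP1 (0.00373). No share of all genes stands beside this blocked count, so it is not read further.

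The array sets touched this contrast. Within groups of arm and hour, a linear model put PI3 1.88 higher on arrays of the high set than on those of the low set, CSTA 0.70 higher, and CST7 at -0.72. Without Y31303 and Y31305 these values were 0.61, 0.18 and -0.88. On the low set alone, LR12 animals had 3, 4 and 5 inhibitors called against vehicle at 2, 4 and 8 h, and PI3 was 7.25 and 7.02 above vehicle at 4 and 8 h. The low set held 2 vehicle arrays at 4 h and 2 at 8 h, those of Y31301 and Y31302, without Y31303. No share of all genes stands beside these counts, so they are not read further. On the high set alone 0 were called at 4 or 8 h, where 2 or 3 LR12 arrays met 2 vehicle arrays, among them those of Y31303. PI3 there was 3.78 and 2.77 above vehicle.

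**Figure D4:**
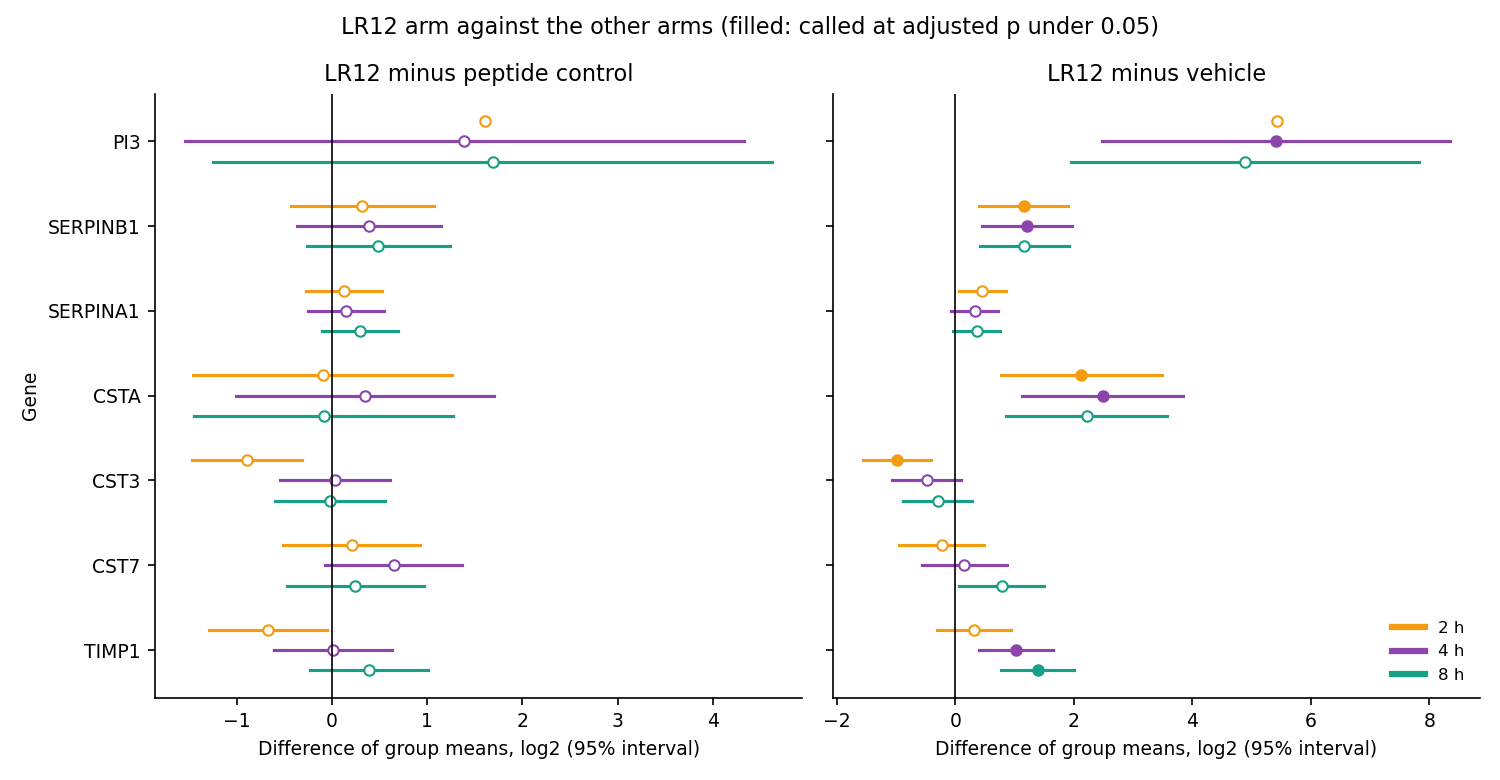
LR12 minus peptide control and LR12 minus vehicle (log2, horizontal axes) for 7 inhibitors at 2, 4 and 8 h, with 95% intervals and filled points for adjusted p below 0.05. PI3 was not tested at 2 h, and its 2 h point has no interval. Against the peptide control no point is filled, and against vehicle the differences of PI3, SERPINB1, CSTA and TIMP1 lie right of 0 at 4 and 8 h.

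The peptide control set against vehicle had 0 inhibitors called at 0, 2, 4 and 8 h, against 0, 0, 0.00624 and 0 percent of all genes and 433, 1339, 1811 and 1153 genes at an unadjusted p under 0.05. PI3 in the peptide control was 4.03 ± 1.60 (SE) above vehicle at 4 h (adjusted p 0.334) and 3.21 above at 8 h (0.695). Without Y31305 and Y31303 these differences were 7.50 and 6.39, and PI3, SERPINB1, CSTA and TIMP1 were called at 4 h (14.1 percent of all genes) and at 8 h (9.84 percent). At 2 h SERPINB1, CSTA and TIMP1 were called (9.46 percent). Both animals were left out after their values were seen, so the wider PI3 gap follows from that choice. The other calls lean on it too. With these 2 animals included no inhibitor was called between the arms.

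Of 35 other protease inhibitors listed, 28 were tested. In LR12 animals 5 were higher and 3 lower at 2 h, 2 higher and 4 lower at 4 h, and 3 higher and 4 lower at 8 h, where 32, 36.8 and 29.1 percent of all genes were called. The median changes were 0.13, -0.25 and -0.07. TFPI2, a Kunitz inhibitor of coagulation proteases and plasmin, averaged 4.63 at 2 h and 1.64 at 0 h, a rise of 2.99 ± 0.80 (SE) with an adjusted p of 0.00281. Its 0 h mean lay below the median of every array, near the floor, and its 2 h mean just above the medians. The 4-array filter can be passed on the 6 LR12 arrays of 2 h alone, so this p is not independent of the filter. SPINT2, an inhibitor of hepatocyte growth factor activator, rose by 1.07 at 2 h and 1.09 at 8 h (adjusted p of 0.0021 and 0.00246), while its relative SPINT1 fell by 1.02, 1.85 and 1.08 at 2, 4 and 8 h (0.00891, 5.6e-06 and 0.00663). The 2 SPINT genes thus moved in opposite directions.

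SERPINF1, a serpin without protease inhibition, fell by 1.55, 2.36 and 2.29 in LR12 animals (adjusted p of 0.00182, 6.08e-06 and 2.74e-05). TIMP2, which like TIMP1 blocks metalloproteinases, averaged 10.31 at 4 h and 12.02 at 0 h, and fell by 1.70 ± 0.35 (SE) with an adjusted p of 9.9e-05. TIMP3, the TIMP bound to extracellular matrix, rose by 1.41 at 8 h (0.0377), and WFDC3, a WAP-fold protein like elafin, averaged 3.56 at 4 h and 2.08 at 0 h, a rise of 1.48 (0.0456). Both WFDC3 means lay below the median of every array, near the floor. TIMP3 also rose in the peptide control by 2.30 at 2 h and 3.42 at 8 h (0.0338 and 0.00854) and SPINT1 fell by 1.46 at 4 h (0.0234), and no other gene of this list was called there. TIMP3 of that arm averaged 2.82 at 0 h, also below the median of every array. Vehicle animals had 0 called at each hour. The WFDC3 call was lost under 14 alternatives, 9 of them the loss of 1 animal, and those of TIMP3 without Y31309, Y31310, Y31312 or Y31313 in LR12 animals, when any peptide control animal was left out at 2 h, and without Y31306 or Y31308 at 8 h. That of SPINT1 in the peptide control was lost under 7 of 26 alternatives, among them without Y31306, Y31307 or Y31308. Against vehicle, LR12 animals had 1 higher at 2 h and 1 lower at 4 h, against 15.9 and 11.9 percent of all genes.

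The proteases that these inhibitors act on were listed as 26 genes, and 24 were tested. LR12 animals had 7 higher and 4 lower at 2 h, 8 higher and 5 lower at 4 h, and 6 higher and 3 lower at 8 h, again against 32, 36.8 and 29.1 percent of all genes, with median changes of 0.28, 0.30 and 0.21. MMP8, the neutrophil collagenase and a target of TIMP1, averaged 8.75 at 2 h and 4.53 at 0 h, a rise of 4.22 ± 0.79 (SE) with an adjusted p of 3.99e-05, and it stayed 4.66 and 4.33 above 0 h at 4 and 8 h. CTSC, cathepsin C, which activates the granule serine proteases and is itself a target of cystatins, rose by 3.05 ± 0.48 at 2 h (2.74e-06) and by 1.99 at 4 h (0.000837). MMP1, interstitial collagenase, rose by 2.38 at 4 h (0.0141) and 2.65 at 8 h (0.00898). Its 0 h mean of 3.67 lay below the median of every array, near the floor. The 4-array filter can be passed on the later LR12 arrays alone, so these p are not independent of the filter.

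ADAM8, a metalloproteinase of the leukocyte surface, rose by 1.86 in LR12 animals at 2 h (adjusted p 1.45e-06), and CTSL, cathepsin L, by 1.37 at 8 h (0.0174). The call of CTSL was lost without Y31310 or Y31312, and that of MMP1 at 4 h without Y31311. CTSW, a cathepsin of cytotoxic lymphocytes, fell by 2.09, 3.11 and 2.62 at 2, 4 and 8 h (1.56e-05, 1.19e-08 and 9.8e-07). ELANE, the elastase that elafin blocks, averaged 3.88 at 2 h and 2.06 at 0 h and was not called (adjusted p 0.0811), and neither was CTSG, at 3.66 and 2.19 (0.115). Both 0 h means lay below the median of every array, and both 2 h means below the medians of the LR12 arrays of 2 h. These levels are near the floor, where a change can be missed. PRTN3, proteinase 3, did not pass the filter. The genes of these granule serine proteases are known to be transcribed mainly in bone marrow precursors.

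Of the same list, 3 proteases were higher in the peptide control at 2 h, CTSC by 2.45, ADAM8 by 1.45 and CTSH, cathepsin H, by 1.04 (adjusted p of 0.0108, 0.0108 and 0.0217), against 3.3 percent of all genes. At 4 h CTSW fell by 1.60 (0.0314) and MMP19, a metalloproteinase, by 1.06 (0.0464), against 4.84 percent, and 0 were called at 8 h, against 0.73 percent. Each of these 5 calls was lost without Y31306, without Y31307 or without Y31308, and that of MMP19 under 15 of 26 alternatives, 9 of them the loss of 1 animal. Vehicle animals had 0 called at each hour. Against vehicle, LR12 animals had 5 proteases higher and 3 lower at 2 h, 4 higher and 2 lower at 4 h, and 0 higher and 2 lower at 8 h, against 15.9, 11.9 and 2.72 percent of all genes.

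Markers of blood cell types moved beside these genes. Over all genes in LR12 animals, 1613 were higher and 3512 lower at 2 h, 1731 higher and 4168 lower at 4 h, and 1386 higher and 3272 lower at 8 h, which make up the 32, 36.8 and 29.1 percent called. Of 16 mature neutrophil markers, LR12 animals had 11 higher and 0 lower at 2 h, 11 higher and 1 lower at 4 h, and 10 higher and 1 lower at 8 h, and the list's mean ran from 9.71 to 10.19 at 2 h and from 8.17 to 9.43 at 0 h. Of 16 granule genes, 10, 10 and 7 were higher and 0, 1 and 0 lower at these hours. The granule list's mean change at 2 h was 1.56 to 3.13 in LR12 animals, 2.14 to 2.45 in the other peptide control animals against -0.10 in Y31305, and 1.79 in Y31303 against -0.33 to 0.47 in the other vehicle animals. The granule list thus set Y31305 and Y31303 apart from their arms. The mature neutrophil list did not set Y31303 apart, with a change at 2 h of 0.88 against 0.32 to 1.02 in the other vehicle animals. Y31305 changed by 0.38 in this list at 2 h, below the 0.65 to 0.88 of the other peptide control animals. At 4 and 8 h its change lay within their range.

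Of 12 monocyte markers in LR12 animals, 4 were higher and 4 lower at 2 h, 6 higher and 3 lower at 4 h, and 6 higher and 1 lower at 8 h. The monocyte list's mean change at 2 h was -1.15 to 0.09 in LR12 animals, -0.76 to -0.52 in the peptide control without Y31305, -0.86 in Y31303 and 0.40 to 0.49 in the other vehicle animals; at 8 h it was 0.30 to 1.19 in LR12 animals. The list's change at 8 h was 0.23 to 0.48 in the peptide control without Y31305, 0.08 in Y31303 and 0.25 to 0.47 in the other vehicle animals. CST3 was lower in LR12 animals at 2 h and TIMP1 higher at 8 h. In Y31303, where the list's 8 h change was the smallest, TIMP1 changed by 1.96 at 8 h, against -0.11 to 0.21 in the other vehicle animals. Of 18 T cell markers 13, 18 and 17 were lower at 2, 4 and 8 h in LR12 animals, of 13 B cell markers 11, 7 and 6, and of 15 NK cell markers 8, 10 and 8, and none was higher. Of 11 platelet markers 1 was higher at 2 h and 4 were lower at 4 and at 8 h, and of 9 erythroid markers 1 was lower at 4 h and 7 at 8 h. All these counts stand against the same shares of all genes, most of them lower. Against vehicle, LR12 animals at 2 h had 3 mature neutrophil markers, 4 granule genes and 2 monocyte markers higher, and 5 monocyte, 4 T cell and 8 B cell markers lower, against 15.9 percent of all genes. The part of the cell mix in the changes of the inhibitors was not tested.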

How the data were processed

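Whole blood RNA of 14 macaques was measured on 56 human HG-U133 Plus 2 arrays at 4 times. Per the labels, blood was drawn into PAXgene tubes and biotinylated cDNA was made from 50 ng of total RNA with a NuGEN kit. The deposited values are linear intensities. The submitters' processing notes name MAS5, with no version given, as the authors' tool. They had been scaled to one trimmed mean per array.

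The deposited intensities were put on the log2 scale with no further normalization. A probe set was kept if above its array's median on at least 4 of 56 arrays, and each gene was read by 1 probe set, which left 16020 genes. Human-sequence probes on macaque RNA may bind less where sequences differ, which lowers levels and cannot be corrected here. Limma 3.58.1 in R 4.3.3 fitted 12 means of arm and hour over all arrays, with a trend and robust moderation. Adjusted p values are two-sided, by Benjamini-Hochberg over all genes tested in each of 27 comparisons, and a gene was called below 0.05. SE are limma's. PI3 was not tested where 0 h or 2 h arrays enter, since its 2 h increase chose it. Its tests between arms at 4 and 8 h use the same animals and are not independent of that choice. The steps were tested on simulated data.

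The labels name each animal, so its 4 arrays pair. After removal of group means, arrays of one animal correlated at 0.18 on average (lowest 0.103) and arrays of different animals at -0.0294, and the consensus correlation was 0.221. The main model has no block; the blocked values stand where they change a call.

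The members and lists were chosen with earlier results of these data known. All 8 members are named; of the 2 other lists, the 4 called genes with the largest change from 0 h in each arm and hour; and the 8 genes closest to PI3. Alternatives covered scaling, filter, probe set, model, array set and single animals left out. SLPI, under the filter, was not tested, and no sequence is shown. Whole blood was checked by marker lists.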

Additional observations from a re-analysis of the deposited data

Results flagged for a closer look

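In 84 sets of one inhibitor, arm and hour, the highest or lowest animal was checked by Dixon's test at its 95% level, which flags about 1 set in 20 by chance. PI3 had an animal far from the rest in the vehicle arm at 2, 4 and 8 h, Y31303 at 13.912, 13.839 and 13.717, and in the peptide control at 2 and 4 h, Y31305 at 7.199 and 7.452. Y31305 also lay far below the rest in SERPINB1 (11.567) and CSTA (9.799) at 4 h, and Y31303 far above in CSTA (12.026) at 4 h. Thus 8 of the 11 flags fall on these 2 animals. The other 3 were Y31311 in CST3 at 4 h (9.765) and in TIMP1 at 8 h (12.68), both low in the LR12 arm, and Y31308 in TIMP1 at 0 h (11.609), high in the peptide control. Why these animals differ from their arms was not tested.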

How the results depend on the processing

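Of 27 counts of called inhibitors, 15 stayed within 1.5 times under every alternative that gave a value, 25 to 27 for each count. The 4-array filter raised to 14 arrays gave 3 for LR12 against vehicle at 8 h (main count 1), and no filter or plain eBayes gave 0 for the peptide control at 4 h (main 1). Centring or quantile normalization gave 1 for the peptide control at 8 h (main 0). The mean of kept probe sets gave 1 and 2 for LR12 against vehicle at 2 and 8 h (main 3 and 1), and a fit on only the groups compared gave 1 and 0 there and 2 for the peptide control at 4 h. With the animal as a replicate block, counts were 3 for LR12 at 8 against 4 h, 1 for LR12 against the peptide control at 2 h, 4 for LR12 against vehicle at 8 h, and 1, 2 and 1 for the peptide control at 2, 4 and 8 h; it moved no other count over 1.5 times. The array set as a covariate gave 0 and 1 for the peptide control at 4 and 8 h, 2 for LR12 at 8 against 4 h, 1 for LR12 against the peptide control at 2 h and 4 against vehicle at 8 h. Chosen after seeing the data, the fit without Y31303 and Y31305 gave 1, 3 and 1 for the peptide control at 2, 4 and 8 h, 1 and 4 for LR12 against the peptide control at 2 h and vehicle at 8 h, and 3, 4 and 4 for the peptide control against vehicle. Low-control arrays alone gave 5 for LR12 against vehicle at 8 h, on 2 vehicle arrays without Y31303. High-control arrays alone gave 0 there and at 4 h, 0 for LR12 at 8 against 4 h, and 0 and 1 for the peptide control at 4 and 8 h; these have fewer arrays. Leaving out 1 animal gave 2 to 4 for LR12 at 8 h, 0 to 1 for 8 against 4 h, 0 to 1 for LR12 against the peptide control at 2 h, 0 to 4 for LR12 against vehicle at 2, 4 and 8 h, 0 to 1, 0 to 2 and 0 to 1 for the peptide control, and 0 to 3, 0 to 4 and 0 to 3 against vehicle. Single values reversed only with other probe sets: CST3 in LR12 animals with its 2 other probe sets (0.134 and 1.285 at 2 h, 0.030 and 0.455 at 4 h), against vehicle at 2 h (0.262, 0.874, and 0.051 for the mean of kept probe sets), in the peptide control at 4 h with the second of them (1.124), and SERPINA1 in LR12 animals with another probe set (-0.925 at 4 h, -0.462 at 8 h). These 3 probe sets were above the array median on 8, 14 and 1 of 56 arrays. No share of all genes stands beside the counts of this section, so they show only how far the main counts move. Where no cause is given, it was not tested.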

Other observations

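MARCO, a scavenger receptor of macrophages, was among the genes closest to PI3 once group means were removed, a choice that the animals Y31303 and Y31305 weigh on. At 8 h it ran from 9.68 to 11.67 in LR12 animals and was 10.21 in Y31303, against 0.92 to 1.51 in the other vehicle animals. In the peptide control it was 2.255 in Y31305 and 9.88 to 10.71 in the other animals at 8 h. The low levels lay below the median of every array, near the floor, so the size of these gaps is uncertain. LGALS12, a galectin, ran from 9.10 to 10.22 in LR12 animals at 2 h and from 3.18 to 5.42 at 0 h. At 2 h it was 5.14 in Y31305, 10.03 in Y31303 and 4.02 to 4.64 in the other vehicle animals.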
